A study of Rattus norvegicus with 11 samples.

Results

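AP-1 and early response factors were measured on rat arrays by 12 probe sets of 8 genes, among 15866 probe sets tested and 10411 genes with a symbol. The members are Fos, Fosb, Fosl1, Jun, Junb, Jund, Atf3 and Egr1, taken as the probe sets that carry 1 of these symbols alone in the platform annotation. All 8 genes were found. Fos and Jund each have 2 probe sets, Jun has 3, and the other genes have 1 each. No filter on low signals was applied, so all 12 were tested. Where a gene is given by 1 value, it is that of its brightest probe set, by the mean of log2 values.

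RNA came from REF52, an established line of rat embryo fibroblasts. All cells were grown in DMEM with 10% fetal bovine serum, kept for 48 hours in 0.25% serum before infection. The virus was either a control adenovirus, named CMV in the labels, or an adenovirus carrying E2F1, which encodes an activator of genes for entry into S phase. After infection the cells received deprivation medium, serum, or serum with LY294002, an inhibitor of phosphoinositide 3-kinase. Control virus cells in serum, E2F1 cells in serum, both groups with LY294002 and deprived E2F1 cells have 2 arrays each, and deprived control virus cells have 1, which makes 11 arrays in 6 groups. Every group, the deprived ones included, carries a virus, and all were starved before infection. The time from infection to harvest and the doses of LY294002 and virus were not known here. The series title sets the question as the part of an E2F1-dependent program in the balance of proliferation and cell death. Whether replicate arrays had separate cultures is not stated, so the p-values reflect the spread between arrays, possibly a technical one.

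AP-1 is a dimer of basic leucine zipper proteins. Jun proteins pair with each other or with Fos proteins, Fos proteins need a Jun partner, and Atf3 belongs to the related ATF family and can act as a repressor. Egr1 is a zinc finger factor with its own GC-rich site. Transcripts of Fos, Fosb, Jun, Junb, Atf3 and Egr1 appear within minutes when serum, growth factors or stress activate MAP kinases, and most decay quickly. Fosl1, which encodes Fra-1, comes later and is itself an AP-1 target, while Jund is present in most resting cells.

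Signals are on a linear scale, and changes are differences of log2(signal + 16) from a limma model fitted to all arrays, with Benjamini-Hochberg adjustment over all 15866 probe sets and a threshold of 0.05. "Called" means an adjusted p under that threshold. Median signals ran from 172.7 to 207.6 across the arrays. The difference between 3' and 5' probe sets of control genes, a measure of RNA quality, was largest on the second array of E2F1 with LY294002, at 0.899 on the log2 scale, and on the deprived control virus array, at 0.76. It was 0.556 and 0.51 on the deprived E2F1 arrays and between 0.122 and 0.331 on the others. Of 12 fibroblast markers, 8 lay above the array median on every array, whereas 0 of 16 measured markers of other cell types did. The fibroblast markers themselves were lower with E2F1: all 12 had an average change below 0, with a median of -0.41 against -0.04 over all probe sets. Of the 12, 2 were called lower, 16.7% against 7.25% of all probe sets: Pdgfrb (-1.90 ± 0.36, adjusted p = 0.0109) and Sparc (-0.75 ± 0.13, 0.00891). In deprivation all 12 were again below 0, with a median of -0.66 against -0.14 and 0 called. Their summed signal was highest on the deprived control virus array, at 125066, against 84995 to 97157 on the deprived E2F1 arrays. The part of this shift in the members' values was not tested. No probe set carries the symbol E2f1 alone, so the transgene was not checked here. Fewer cells with a transcript and less of it per cell cannot be told apart in such samples.

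Promoter sequence is shown for Fosl1 and Junb, since these were the members called both in the average over media and in deprivation. The sequences are RefSeq's, assembly GRCr8, from 250 bases before to 50 after the annotated start, 5′ to 3′ on the gene's strand. Fosl1 lies at chr1:212183635-212183934 on the plus strand and Junb at chr19:40080876-40081175 on the plus strand. Capitals mark the letters TGACG on either strand, which form the short version of a cAMP response element. They also mark GGGCGG, the box bound by the general activator Sp1, and TATAAA, the box that positions the polymerase at many promoters.
Fosl1: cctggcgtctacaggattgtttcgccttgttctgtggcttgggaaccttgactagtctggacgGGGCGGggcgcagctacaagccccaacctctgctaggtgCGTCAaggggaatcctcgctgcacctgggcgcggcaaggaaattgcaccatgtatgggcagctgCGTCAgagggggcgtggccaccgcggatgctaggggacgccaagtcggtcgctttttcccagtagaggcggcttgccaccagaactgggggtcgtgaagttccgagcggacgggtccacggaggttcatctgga
Junb: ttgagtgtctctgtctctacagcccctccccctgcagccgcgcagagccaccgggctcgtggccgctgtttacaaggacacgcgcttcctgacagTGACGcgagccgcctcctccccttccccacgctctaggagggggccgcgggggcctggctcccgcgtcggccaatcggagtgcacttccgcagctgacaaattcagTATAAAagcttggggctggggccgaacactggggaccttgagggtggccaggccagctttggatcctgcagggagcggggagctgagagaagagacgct
The search also covered, on both strands, TGANTCA (an AP-1 site), TGACGTCA (a full cAMP response element, which holds the short one), TTTCCCGC and TTTGGCGC (forms of the E2F site), GCGNGGGCG (an Egr1 site, whose letters can overlap GGGCGG) and the CArG box of serum response factor. Entries were found for 5 of the 8 members, Fosb, Fosl1, Junb, Jund and Egr1, and not for Fos, Jun and Atf3. Fosl1 had 2 short elements, 148 and 84 bases before the start, and an Sp1 box. Junb had 1 short element and a TATA box 49 bases before the start. Egr1 had 2 CArG boxes, and Jund had 1 full cAMP response element and 3 Egr1 sites. The AP-1 letters and both E2F forms were in 0 of these 5 windows. Among 33469 promoters of this length, a short element stood in 21.2%, GGGCGG in 33.1%, TATAAA in 14.2%, a CArG box in 1.64%, the full element in 1.83%, an Egr1 site in 4.98%, the AP-1 letters in 7.33%, and the E2F forms in 0.974% and 0.493%. A match describes letters in this window and is no measured binding site.

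Averaged over the 3 media, Fosl1 and Atf3 rose with E2F1, and Junb and 1 of the 3 Jun probe sets fell. Fosl1 changed by 0.82 ± 0.14 on the log2 scale (SE; 1.77-fold, adjusted p = 0.00681), Atf3 by 1.51 ± 0.42 (adjusted p = 0.0465), Junb by -0.65 ± 0.11 (1.57-fold lower, adjusted p = 0.00761) and the Jun probe set 1369788_s_at by -0.73 ± 0.20 (1.66-fold lower, adjusted p = 0.0404). Thus 4 of the 12 probe sets, 33.3%, were called, against 16.5% of all probe sets tested. The 2 called higher compare with 9.23% of all probe sets, and the 2 called lower with 7.25%. The median change over the 12 probe sets was -0.61, and it was -0.04 over all probe sets and -0.41 over the fibroblast markers. A point estimate below 0 was found in all 3 media for 8 of the 12 probe sets, those of Fos (1375043_at), Fosb, Jun (all 3), Junb, Jund (1387762_s_at) and Egr1, and one above 0 in all 3 media for Atf3 alone. The share of all probe sets with the same sign in all 3 media was not counted, so these counts only describe the members. They include 3 probe sets of 1 gene, Jun, and a dim one of Jund. Without the deprived control virus array, the average over the 2 media with serum called 0 of the 12: Fosl1 was then at 0.32 ± 0.16 (adjusted p = 0.249), Junb at -0.43 ± 0.13 (0.0746), Atf3 at 1.60 ± 0.48 (0.0765) and the Jun probe set at -0.53 ± 0.22 (0.183). This alternative drops both the array and the deprivation medium, and it called 1625 of all probe sets. Fosl1 shrank the most, while Atf3, Junb and Jun kept their direction and missed the threshold.

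**Figure D1:**
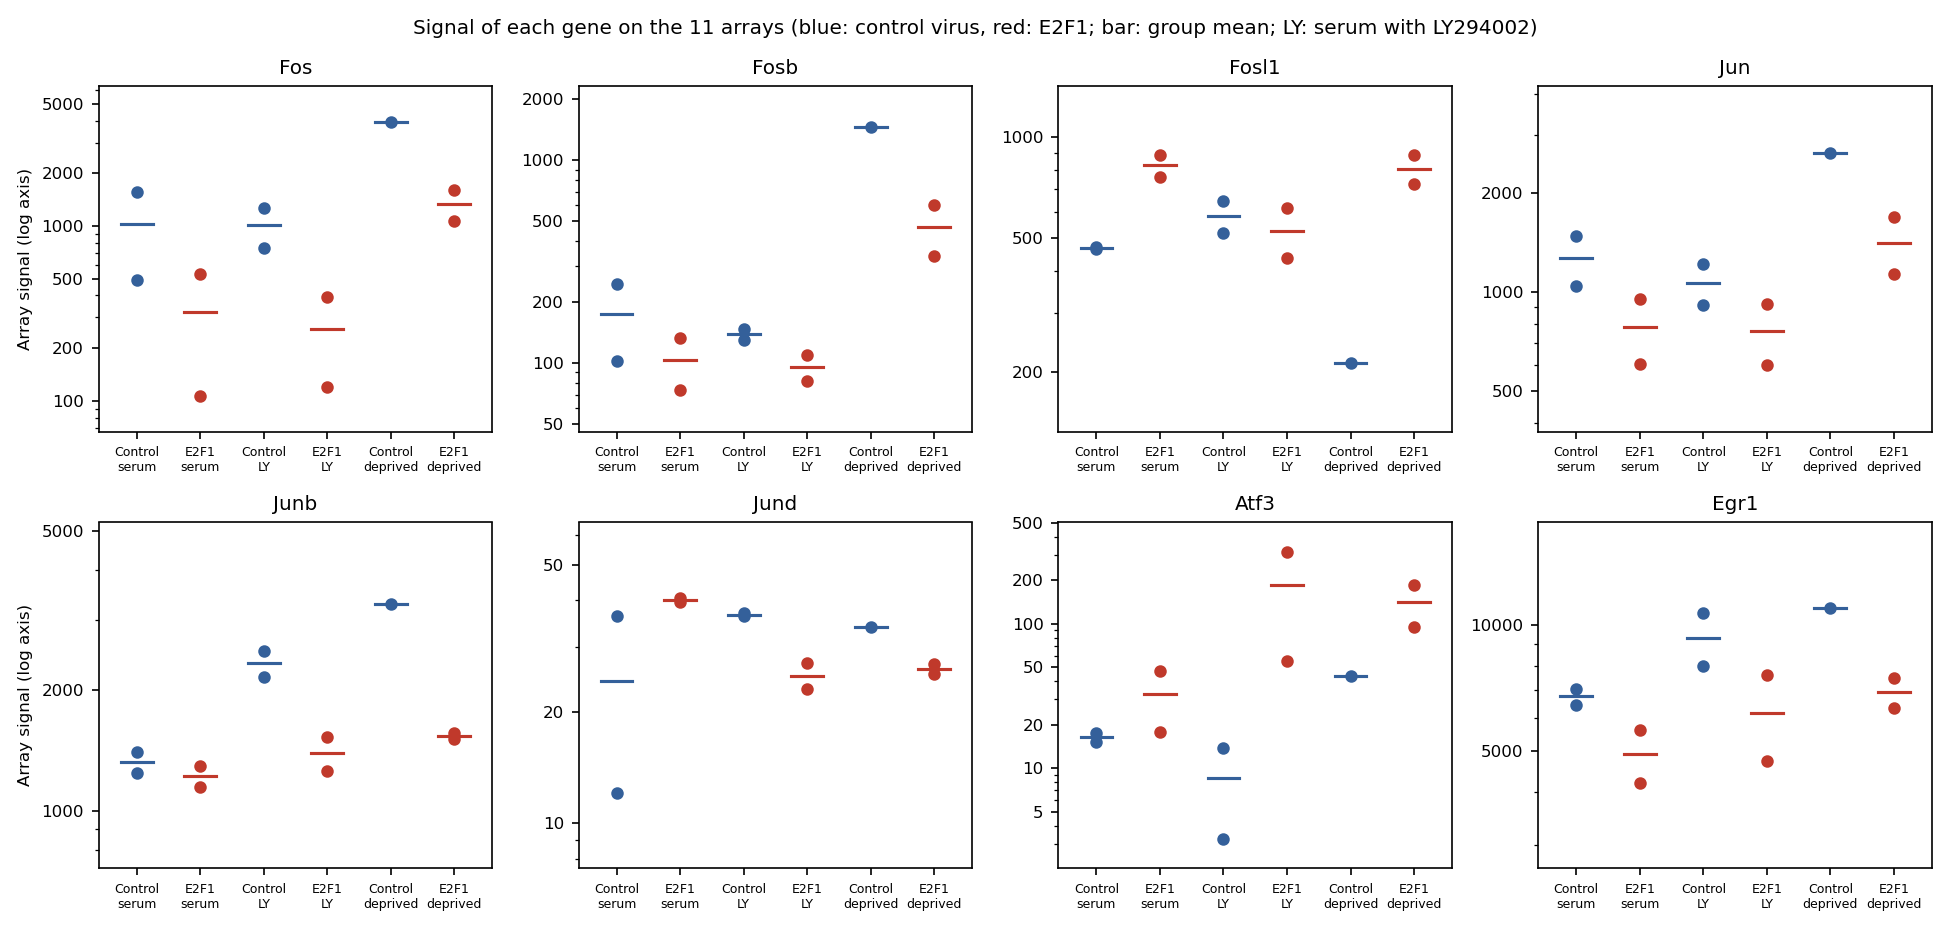
Array signal (log axis, scale differing between panels) of each gene's brightest probe set in the 6 groups, with control virus in blue and E2F1 in red; each point is 1 array and each bar a group mean. The single deprived control virus array is the highest of the 11 for Fos, Fosb, Jun, Junb and Egr1 and the lowest for Fosl1.

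Fos is the founding partner of Jun in AP-1, and its brightest probe set spread widely over the arrays, 37.2-fold from the lowest to the highest. Its signal was 491 and 1557 in serum with control virus and 106 and 533 with E2F1. With LY294002 it was 751 and 1272 with control virus and 119 and 393 with E2F1. In deprivation it was 3955 on the control virus array and 1611 and 1064 on the E2F1 arrays. Arrays of the same group differed by up to several-fold, so that control virus and E2F1 arrays overlapped in serum, while with LY294002 and in deprivation all control virus arrays lay above all E2F1 arrays. The change with E2F1 was -1.82 ± 0.52 in the average (3.52-fold lower, 95% interval -3.03 to -0.60, adjusted p = 0.0518), which is not called. It was -1.78 ± 0.84 in serum (adjusted p = 0.359), -2.08 ± 0.84 with LY294002 (0.205) and -1.58 ± 1.03 in deprivation (0.431). By group mean the order from the lowest was E2F1 with LY294002 (256 ± 194, SD), E2F1 in serum (320 ± 302), control virus with LY294002 (1011 ± 368), control virus in serum (1024 ± 754), deprived E2F1 (1337 ± 387) and deprived control virus (3955). Neighbours overlapped except at the step from E2F1 in serum to control virus with LY294002 and at the last step. The other Fos probe set, 1371283_at, was dimmer than the median probe set, ran only from 54.0 to 127 and gave -0.03 ± 0.17 in the average (adjusted p = 0.938). The Fos values thus depend on which probe set is read, and neither probe set was called in any comparison of the fit as reported.

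Fosb, a Fos paralogue with a transactivating full-length form, gave 103 and 246 in serum with control virus, 73.4 and 133 with E2F1, 130 and 148 with control virus and LY294002, and 81.4 and 110 with both E2F1 and LY294002. In deprivation it gave 1453 with control virus and 600 and 337 with E2F1. The deprived arrays stood above all arrays with serum with either virus, and among the groups with serum neighbours overlapped. E2F1 changed Fosb by -0.92 ± 0.27 in the average (1.89-fold lower, adjusted p = 0.0556) and by -1.66 ± 0.53 in deprivation (3.15-fold lower, 0.136), and neither was called.

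Fosl1, which encodes the late and more stable Fra-1, went the other way. Its signal was 470 and 465 in serum with control virus and 886 and 763 with E2F1, 520 and 646 with control virus and LY294002, and 614 and 436 with E2F1 and LY294002. In deprivation it was 213 with control virus and 887 and 726 with E2F1. The lowest of all arrays was thus the deprived control virus one, and E2F1 arrays lay above control virus arrays in serum and in deprivation but overlapped them with LY294002. Fosl1 rose 3.57-fold with E2F1 in deprivation (1.84 ± 0.27, 95% interval 1.21 to 2.46, adjusted p = 0.0241). In serum the change was 0.79 ± 0.22 (1.73-fold, interval 0.28 to 1.30, adjusted p = 0.153), and with LY294002 it was -0.16 ± 0.22 (0.75). The difference between the effects with LY294002 and in serum was -0.95 ± 0.31 (adjusted p = 0.741), and that between deprivation and serum was 1.04 ± 0.35 (interval 0.24 to 1.85, adjusted p = 0.431), so a difference between media was not shown. By group mean, deprived control virus (213) came lowest. Control virus in serum (467 ± 3.57, SD), E2F1 with LY294002 (525 ± 126) and control virus with LY294002 (583 ± 89.0) followed and overlapped, and deprived E2F1 (807 ± 114) and E2F1 in serum (825 ± 87.3) were highest and overlapped each other. The deprivation call needs the single control array, which also has a high 3' to 5' difference; with that difference as a covariate the change was 1.71 ± 0.27 (adjusted p = 0.0239). Without either of the deprived E2F1 arrays the adjusted p was 0.144 or 0.106.

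Jun, the prototype AP-1 subunit, was measured by 3 probe sets of similar pattern. For 1389528_s_at, the brightest, the signal was 1048 and 1487 in serum with control virus and 607 and 956 with E2F1, 913 and 1216 with control virus and LY294002, and 602 and 921 with E2F1 and LY294002. In deprivation it was 2650 with control virus and 1690 and 1134 with E2F1. E2F1 arrays lay below control virus arrays in serum and in deprivation and overlapped them with LY294002. The average change was -0.71 ± 0.21 (adjusted p = 0.0593) for this probe set and -0.58 ± 0.19 (0.0735) for 1374404_at, and neither was called. Only 1369788_s_at passed, at an adjusted p of 0.0404. That call held in 2 of the 10 fits without 1 array, and the direction was the same for all 3. Within single media no Jun probe set was called, with changes between -0.70 and -0.64 in serum, between -0.49 and -0.02 with LY294002 and between -1.14 and -0.93 in deprivation.

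Junb, which competes with Jun for partners and is often growth-restraining, gave 1403 and 1240 in serum with control virus and 1294 and 1149 with E2F1. With LY294002 it gave 2164 and 2511 with control virus and 1257 and 1532 with E2F1, and in deprivation 3287 with control virus and 1562 and 1512 with E2F1. All 6 E2F1 arrays lay between 1149 and 1562 whatever the medium, while the control virus arrays spread from 1240 to 3287, lowest in serum. Junb fell 2.13-fold with E2F1 in deprivation (-1.09 ± 0.22, 95% interval -1.60 to -0.58, adjusted p = 0.0461). The change with LY294002 was -0.74 ± 0.18 (1.67-fold lower, adjusted p = 0.0557), and in serum it was -0.11 ± 0.18 (0.825). The effect in deprivation differed from that in serum by -0.98 ± 0.28 (interval -1.63 to -0.32, adjusted p = 0.396) and that with LY294002 by -0.63 ± 0.25 (0.772), and neither difference was called. By group mean the order was E2F1 in serum (1221 ± 102, SD), control virus in serum (1322 ± 116), E2F1 with LY294002 (1394 ± 195) and deprived E2F1 (1537 ± 35.5), whose neighbours overlapped, then control virus with LY294002 (2338 ± 245) and deprived control virus (3287), each apart from the next lower. The deprivation call held in 4 of the 10 fits without 1 array, and with that RNA quality measure as a covariate the change was -0.97 ± 0.20 (adjusted p = 0.0439).

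Jund, the subunit of resting cells, was dim on both probe sets, so no fold is given. On 1375768_at all arrays read between 12.1 and 40.6, and on 1387762_s_at between 2.82 and 53.1, with 5 and 9 of the 11 arrays under a signal of 32. The averages were -0.02 ± 0.17 (adjusted p = 0.96) and -0.63 ± 0.22 (0.0911). In serum the probe sets had opposite signs, 0.55 ± 0.27 (0.381) and -1.48 ± 0.35 (0.114), so that these data give no direction for Jund.

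Atf3, a stress-induced ATF factor, was near the floor of the arrays in most control virus samples. Its signal was 17.5 and 15.1 in serum with control virus and 17.9 and 47.3 with E2F1, 3.24 and 13.8 with control virus and LY294002, and 54.7 and 313 with E2F1 and LY294002. In deprivation it was 43.2 with control virus and 186 and 94.1 with E2F1. E2F1 arrays exceeded control virus arrays in each of the 3 media, by little in serum and by the most with LY294002, where the 2 E2F1 arrays also differed most from each other. The array with 313 is the one with the largest 3' to 5' difference. Atf3 was called in the average only, while the changes by medium were 0.52 ± 0.68 in serum (adjusted p = 0.773), 2.67 ± 0.68 with LY294002 (0.0634) and 1.33 ± 0.83 in deprivation (2.52-fold, 0.41). Their standard errors are the largest of the members beside those of Fos, and the average call held in 2 of the 10 fits without 1 array.

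Egr1, the zinc finger factor, gave 6460 and 7060 in serum with control virus and 4216 and 5635 with E2F1. With LY294002 it gave 7975 and 10703 with control virus and 4733 and 7598 with E2F1, and in deprivation 10966 with control virus and 7489 and 6331 with E2F1. Within each medium all E2F1 arrays lay below all control virus arrays. The size was modest and was not called: -0.59 ± 0.17 in the average (1.50-fold lower, adjusted p = 0.0555), -0.47 ± 0.28 in serum (0.462), -0.62 ± 0.28 with LY294002 (0.246) and -0.67 ± 0.34 in deprivation (0.313). By mean, E2F1 in serum (4925), E2F1 with LY294002 (6165), control virus in serum (6760) and deprived E2F1 (6910) overlapped with their neighbours, and control virus with LY294002 (9339) and deprived control virus (10966) stood apart above them.

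**Figure D2:**
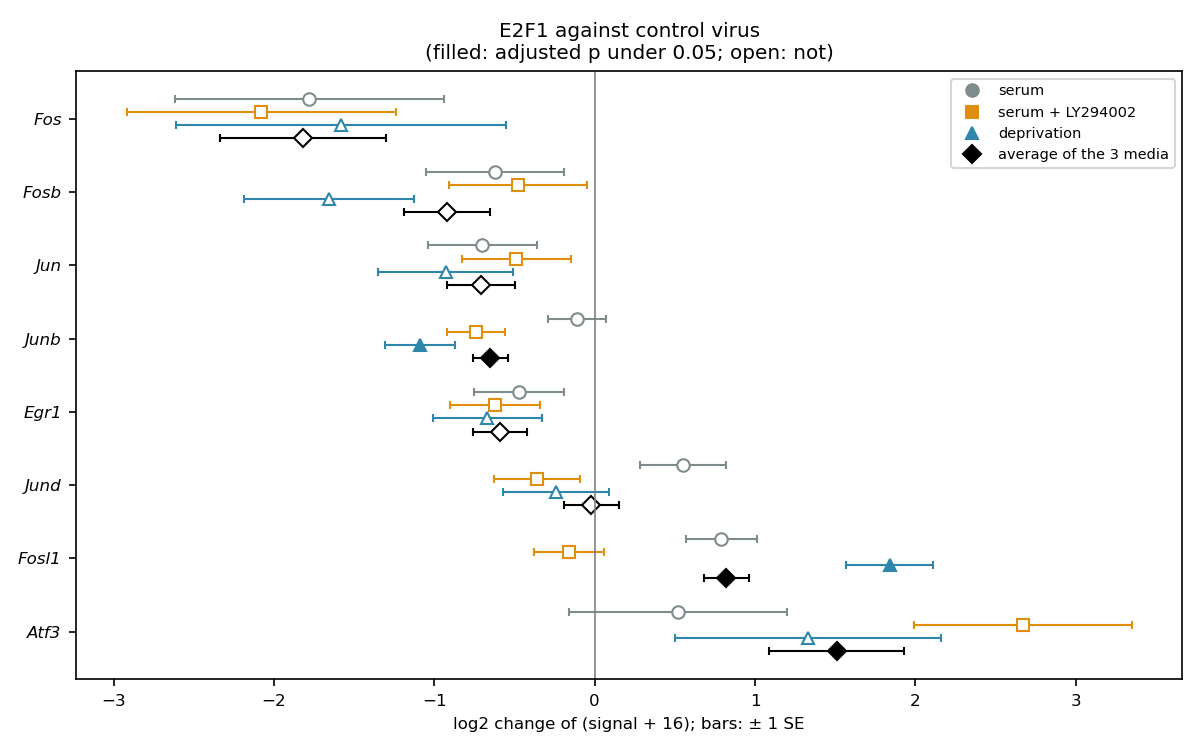
Change with E2F1 against control virus of each gene's brightest probe set, as log2 of signal + 16, in serum (circles), serum with LY294002 (squares), deprivation (triangles) and their average (diamonds), with bars of 1 SE; filled symbols have an adjusted p under 0.05. Fosl1 (0.82) and Atf3 (1.51) lie above 0 and Junb (-0.65) below 0 among the filled averages, and Fosl1 (1.84) and Junb (-1.09) are filled in deprivation.

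**Figure D3:**
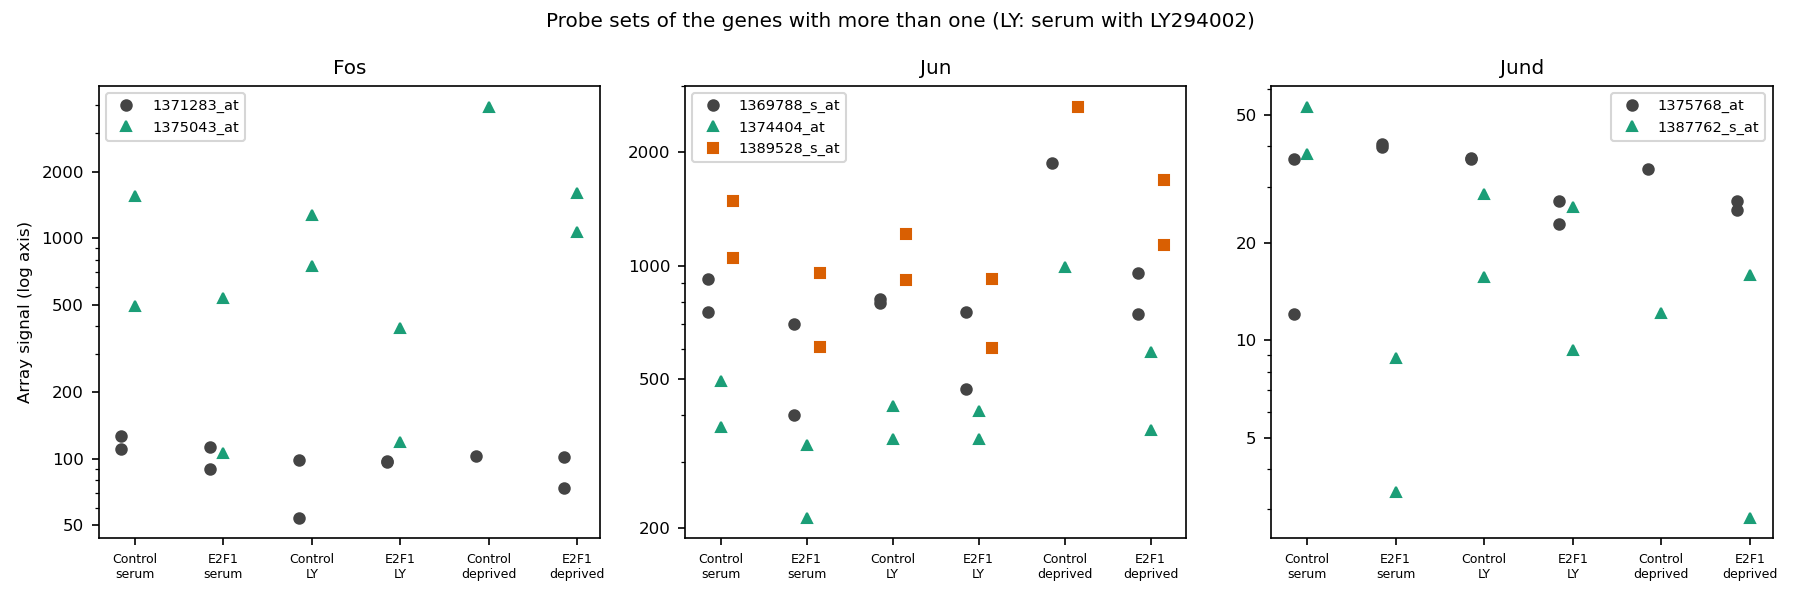
Array signal (log axis) by group of the probe sets of Fos, Jun and Jund, the genes with more than 1; each point is 1 array. The 3 Jun probe sets follow one another, while Fos 1371283_at stays between 54.0 and 127 as 1375043_at runs from 106 to 3955, and both Jund probe sets stay at or below 53.1.

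Within single media the counts were low. In serum 0 of the 12 probe sets were called, against 0.353% of all, and 2 had an unadjusted p under 0.05 (Fosl1 and Jund 1387762_s_at), against 15.5% of all. With LY294002 0 were called, against 5.41%, and 3 had an unadjusted p under 0.05 (Fos, Junb and Atf3), against 21.5%. In deprivation 2 were called, 16.7% of the 12, against 2.87% of all. Fosl1 was the 1 called higher, against 2.19% of all, and Junb the 1 called lower, against 0.681%. Both deprivation calls rest on 1 control array.

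The medium itself was compared in cells with each virus. LY294002 against none called 0 of the 12 in control virus cells, against 0.0% of all probe sets, and 0 in E2F1 cells, again against 0.0%. An unadjusted p under 0.05 was found for 1 of 12 in control virus cells (6.62% of all) and 2 of 12 in E2F1 cells (11.1% of all). The first was Junb, at 0.81 ± 0.18 (1.76-fold, 95% interval 0.40 to 1.23, adjusted p = 0.508). The others were Fosl1, at -0.65 ± 0.22 (interval -1.16 to -0.14, adjusted p = 0.434), and Atf3, at 1.72 ± 0.68 (interval 0.15 to 3.29, adjusted p = 0.441). Fos was at 0.15 ± 0.84 with control virus (95% interval -1.79 to 2.10, adjusted p = 0.98) and at -0.14 ± 0.84 with E2F1 (interval -2.09 to 1.80, 0.956), so changes of several-fold in either direction lie inside these intervals.

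Deprivation against serum gave the largest differences of Fosb and Fos, without a call. In control virus cells, where 1 array stands against 2, Fosb differed by 3.05 ± 0.53 (8.31-fold, 95% interval 1.82 to 4.28, adjusted p = 0.0816), Junb by 1.31 ± 0.22 (2.47-fold, 0.0796), Fos by 2.15 ± 1.03 (4.45-fold, 0.401), the brightest Jun probe set by 1.08 ± 0.42 (0.312) and Fosl1 by -1.08 ± 0.27 (2.11-fold lower, 0.165). Of the 12, 0 were called, against 0.24% of all, and 7 had an unadjusted p under 0.05, against 14.0%. All groups had been starved before infection, and the serum groups are those given serum again. In E2F1 cells, with 2 arrays on each side, Fosb differed by 2.01 ± 0.43 (4.04-fold, interval 1.01 to 3.02, adjusted p = 0.0941), Fos by 2.35 ± 0.84 (5.11-fold, 0.197), Junb by 0.33 ± 0.18 (0.35) and Fosl1 by -0.03 ± 0.22 (0.946). Here 0 were called, against 0.233% of all, and 5 had an unadjusted p under 0.05, against 19.6%. Fosb and the brightest Fos probe set were thus higher in deprivation than in serum on all arrays with E2F1 and on the 1 array with control virus. The other Fos probe set, 1371283_at, went the other way, at -0.18 with either virus and not called. The deprived arrays have higher 3' to 5' differences than all other arrays but 1. With this difference as a covariate, the change of Fos was 0.54 ± 1.43 with control virus (adjusted p = 0.902) and 1.45 ± 0.98 with E2F1 (0.542), and that of Fosb was 2.65 ± 0.82 (0.262) and 1.79 ± 0.56 (0.273).

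The difference of the E2F1 effect between media was called for 0 of the 12 with LY294002 against serum (0.0% of all; 4 at an unadjusted p under 0.05, against 6.29%) and for 0 of the 12 in deprivation against serum (0.0% of all; 2 unadjusted, Fosl1 and Junb, against 9.72%). Comparisons that share the serum arrays are not independent of each other.

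**Figure D4:**
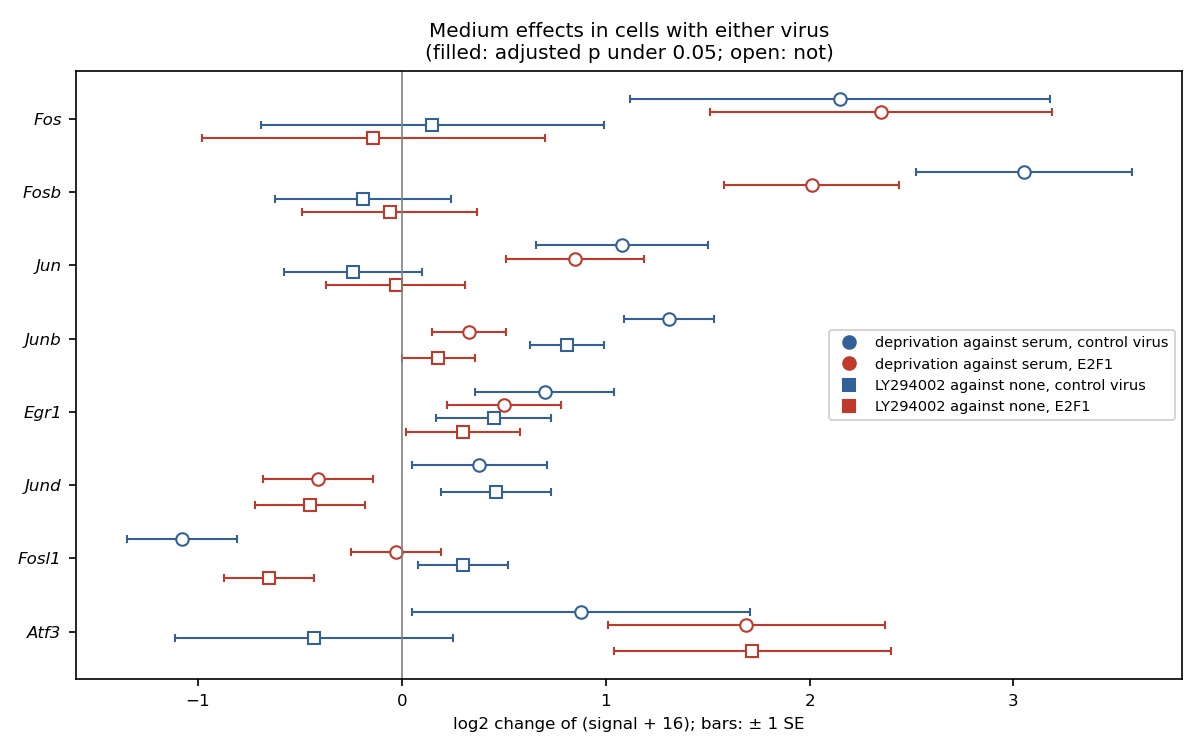
Change of each gene's brightest probe set, as log2 of signal + 16, for deprivation against serum (circles) and LY294002 against none (squares), in control virus cells (blue) and E2F1 cells (red), with bars of 1 SE. All symbols are open, since no adjusted p was under 0.05; Fosb (3.05 and 2.01) and Fos (2.15 and 2.35) lie farthest to the right in deprivation, and Fosl1 lies at -1.08 with control virus and -0.03 with E2F1.

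Related genes were read from lists around the members. Their counts in the average stand against 9.23% of all probe sets called higher and 7.25% called lower. Counts of E2F1 effects within single media stand against 0.353% called in either direction in serum, 5.41% with LY294002 and 2.87% in deprivation. A list share near these is not a result about the list. Of 13 other AP-1, ATF and MAF factors measured, 1 rose and 1 fell with E2F1 in the average: Atf1, a CREB relative, by 0.78 ± 0.11 (adjusted p = 0.00343), and Atf5, a stress-response ATF factor, by -0.36 ± 0.10 (0.0403). The median of the 13 was 0.08, against -0.04 over all probe sets. In deprivation against serum with control virus, Atf5 was the 1 gene called among these lists, at 1.49 ± 0.19 (2.80-fold, adjusted p = 0.0368).

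Among 35 other early response genes, 5 rose and 3 fell in the average, 14.3% and 8.57%, with a median of 0.00. Those that rose included Nr4a3, an orphan nuclear receptor (2.17 ± 0.31, 4.49-fold, adjusted p = 0.00421), Arc, an activity-regulated cytoskeletal gene (1.21 ± 0.16, 0.00346), Klf10, a TGF-beta-inducible zinc finger factor (0.95 ± 0.20, 0.0149), and Nfkbia, the inhibitor of NF-kappaB (0.78 ± 0.11, 0.00359). Those that fell were Zfp36, which promotes decay of AU-rich mRNAs (-1.18 ± 0.15, 0.00276), Klf6 (-0.69 ± 0.18, 0.039) and Id3, an inhibitor of basic helix-loop-helix factors (-0.52 ± 0.11, 0.0164). Nr4a3 has another probe set, at 0.06 (adjusted p = 0.901), so its rise depends on which one is read, whereas the other Klf6 probe set also fell, by 0.73 (0.0388). With LY294002 3 rose and 1 fell, 8.57% and 2.86%, the latter being Zfp36 (-1.54 ± 0.24, 0.0182). In deprivation Id3 alone was called, at -1.13 ± 0.21 (0.0392). In serum 0 were called, and 4 of the 35 had an unadjusted p under 0.05, against 15.5% of all probe sets.

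The MAP kinase cascade and its nuclear target complex, which transmit serum signals to Fos and Egr1, had 3 genes called higher and 1 lower of 18 in the average, 16.7% and 5.56%. Mapk7, which encodes ERK5, rose by 1.19 ± 0.18 (adjusted p = 0.00504), Map3k1 by 0.99 ± 0.26 (0.037) and Map2k3 by 0.55 ± 0.13 (0.0227), and Srf, the serum response factor, fell by 0.65 ± 0.13 (0.0117) on its brighter probe set and was at -0.13 (0.437) on the other. Of 13 feedback genes of the pathway, 1 rose, the phosphatase Dusp14 (0.59 ± 0.14, 0.0286), and 0 fell. Dusp1, an early response phosphatase of MAP kinases, was at -0.66 ± 0.19 (0.0527). For all 13 feedback genes the E2F1 effect with LY294002 was below that in serum, and 0 of these differences were called. Their median was -0.57, against -0.05 over all probe sets, and the share of all probe sets with a difference below 0 was not counted. For the E2F1 effect with LY294002 itself, 1 of the 13 was called lower, 7.69%, against 5.41% of all probe sets called in either direction.

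Of 29 AP-1 target genes, 4 rose and 2 fell in the average, 13.8% and 6.9%, with a median of 0.03. Ezr, a membrane-cytoskeleton linker, rose by 1.11 ± 0.11 (adjusted p = 0.00105), Cxcl1 by 1.06 ± 0.28 (0.0363), Il6 by 0.80 ± 0.18 (0.02) and Timp1, a metalloprotease inhibitor, by 0.76 ± 0.14 (0.0088). Plat, the tissue plasminogen activator, changed by -1.15 ± 0.23 (0.0122) and Hmox1, heme oxygenase 1, by -0.96 ± 0.25 (0.0366), both downwards. The matrix metalloproteases Mmp3 (0.27 ± 0.20, 0.417) and Mmp13 (0.59 ± 0.47, 0.453), textbook AP-1 targets, were not called. The list holds genes driven by several other factors.

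Around Egr1, 0 rose and 2 fell of 14 targets and corepressors in the average, the latter 14.3%, with a median of -0.20. The genes were F3, tissue factor (-1.08 ± 0.25, adjusted p = 0.0253), and Sphk1, sphingosine kinase 1 (-0.72 ± 0.13, 0.00834). With LY294002 both fell too, F3 by 2.27 ± 0.41 (0.0251) and Sphk1 by 1.14 ± 0.20 (0.0254). There 13 of the 14 genes lay below 0, with a median of -0.35 against -0.04 over all probe sets. The fibroblast markers had a lower median there, -0.44, with 10 of 12 below 0, and Fn1 is in both lists. The share of all probe sets below 0 was not counted, so these counts only describe the lists. Of 17 genes of the stress axis around Atf3, 2 rose and 1 fell in the average, 11.8% and 5.88%, with a median of 0.00: Cebpg (1.02 ± 0.15, 0.00441) and Chac1, a glutathione-degrading enzyme (0.78 ± 0.20, 0.035), rose, and Vldlr, a lipoprotein receptor (-1.80 ± 0.21, 0.00218), fell. With LY294002 Vldlr fell by 2.20 ± 0.34 (0.0174), and Trib3, a pseudokinase of the stress response, and Cebpg rose by 1.43 ± 0.31 (0.0405) and 1.29 ± 0.24 (0.0286). There the other Cebpg probe set was at 0.43 (0.397) and the other Trib3 probe sets at 3.96 (0.0584) and 1.37 (0.22), none of them called.

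In serum 0 genes of these 7 lists were called with E2F1. The number at an unadjusted p under 0.05 ran from 1 of 14 for the Egr1 list to 6 of 29 for AP-1 targets. It was 3 of 13 for the other AP-1, ATF and MAF factors. These counts stand against 15.5% of all probe sets. In deprivation Atf1 rose by 1.05 ± 0.21 (adjusted p = 0.0444), Mapk7 by 1.74 ± 0.36 (0.0474), Il6 by 1.71 ± 0.35 (0.0468) and Ezr by 1.48 ± 0.21 (0.0218), against the single control array. Maf, a large MAF factor, fell there by 1.85 ± 0.25 (0.0214), as did Id3, and its other probe sets were at -1.38 (0.092) and -0.74 (0.344). With LY294002 the same Maf probe set, dim at 4.30 to 60.3, rose by 1.41 ± 0.21 (0.0162), with the others at -0.04 (0.964) and 0.20 (0.795). LY294002 against none called 0 genes of these lists in cells with either virus. In control virus cells the median change was nonetheless 0.41 over the 35 early response genes, with 30 of 35 above 0, and 0.49 over the 13 feedback genes, against 0.02 over all probe sets. An example is the ERK phosphatase Dusp6 (1.54 ± 0.44, adjusted p = 0.696). The growth factor Hbegf, of the AP-1 target and Egr1 lists, was at 1.61 ± 0.43 (0.661). In E2F1 cells the median was 0.26 over the 35 early response genes, with 27 above 0, and -0.26 over the 13 feedback genes. Over all probe sets it was -0.05 there. The share of all probe sets above 0 was not counted. These medians describe lists that share arrays and are no test.

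Genes with the most similar pattern were ranked by Pearson's r of log2 values over the 11 arrays, among 5976 genes at or above the median brightness; arrays share medium and virus, so r is given as a description. Fos was nearest to Filip1l (r = 0.956), with Fstl1 (0.930) also among its first 3, and Fosb was nearest to Fhip2a (0.936), Cltb (0.925) and C2cd2 (0.920). Fosl1 was nearest to Fip1l1 (0.936) and Cpsf6 (0.932), both of the mRNA 3' end processing machinery, and Arpc5 (0.902). Jun was nearest to Prune2 (0.916), Klf6 (0.912) and Capn2 (0.911), Junb to C17h5orf24 (0.950), Fndc3b (0.941) and Lamp1 (0.938), and Egr1 to Atp6ap1 (0.967), Dusp1 (0.944) and Rab2b (0.936). Dusp1, like Egr1, was highest on the deprived control virus array, at 5780, and its lowest value was 1736. Jund and Atf3 lay below the median brightness and were not ranked.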

How the data were processed

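Biotin-labelled RNA (6 µg of total RNA) was hybridised to 11 Affymetrix RAE230A arrays, per the labels' protocols. The deposited values are signal intensities on a linear scale, and MAS5 and RMA are listed in the submitters' processing notes without roles or versions. The mean trimmed by 2% at each end was 500 on every array. The table holds 15923 probe sets, of which 57 controls were left out. Of the rest, 12783 have 1 gene symbol, 312 several and 2771 none.

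Values were taken as log2(signal + 16), which understates changes of dim probe sets, without further scaling. limma 3.58.1 in R 4.3.3 fitted 1 mean per group to all 11 arrays (lmFit, eBayes without trend; 5 residual degrees of freedom, prior 2.88), and the lone array of deprived control virus cells borrows its spread from the other groups. P-values of each of the 10 comparisons were adjusted by Benjamini-Hochberg. No fold is given for an array signal under 32. The members and lists were chosen with earlier results of these data known. Named genes were all members, up to 4 called genes of a list in each direction by size or, where none was called, up to 2 with the smallest p, and the 3 genes nearest to a member by r, of which 1 is not reported here. The values of Dusp1, Mmp3 and Mmp13 with E2F1 were added after they were seen. Alternatives were quantile normalization, centring, offsets of 1 and 64, leaving out the dimmest 30%, trend and robust eBayes, array weights, a replicate block, the compared groups alone, the mean of a gene's probe sets, each array left out and, chosen after seeing the data, the 3' to 5' covariate and the average without the deprived control virus array. The steps were tested on simulated data.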

Additional observations from a re-analysis of the deposited data

Results flagged for a closer look

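In some members the arrays moved in opposite directions in different settings without overlap. Fosl1 differed with LY294002 by 0.30 in control virus cells and by -0.65 in E2F1 cells. Atf3 differed by -0.43 and 1.72 in the same comparisons. The Jund probe set 1375768_at differed by 0.46 and -0.45, and 1387762_s_at by -0.70 and 0.57. Behind the 0.46, the control virus arrays read 36.9 and 36.4 with LY294002 and 12.1 and 36.4 without. That gap is smaller than the rounding, and the change comes from the array at 12.1. The share of all probe sets with such opposite moves was not counted. With E2F1, Jund 1375768_at was at 0.55 in serum, -0.36 with LY294002 and -0.24 in deprivation. The differences were tested as interaction terms in limma, and 0 passed: with LY294002 against serum they were -0.95 ± 0.31 for Fosl1 (SE, adjusted p = 0.741), 2.15 ± 0.96 for Atf3 (0.785), and -0.91 ± 0.38 (0.785) and 1.27 ± 0.49 (0.77) for the Jund probe sets. In deprivation against serum the difference for 1375768_at was -0.79 ± 0.43 (0.581). An unadjusted p under 0.05 was reached by 4 of the 12 probe sets in the first of these and by 2 in the second. Of the 11 arrays, 5 read under a signal of 32 for Atf3, 5 for Jund 1375768_at and 9 for Jund 1387762_s_at.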

How the results depend on the processing

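Counts are of the 12 member probe sets called. In the average over media, 4 in the fit as reported, the count was 2 with an offset of 1, 7 with an offset of 64, 8 without the dimmest 30% of probe sets, 8 with trend and robust settings, 7 with the 3' to 5' covariate and 0 without the deprived control virus array, both of these chosen after seeing the data. Leaving out 1 array at a time gave 2 to 7 in the average (7 when the second array of E2F1 with LY294002 is dropped, and 2 without either deprived E2F1 array, either control virus array with LY294002, the second control virus or the first E2F1 array in serum). It gave 0 to 2 in deprivation (0 without either deprived E2F1 array, 1 without any 1 of the serum arrays without LY294002), 0 to 1 for E2F1 with LY294002 and 0 to 1 for LY294002 in E2F1 cells, both 1 only when the first array of E2F1 with LY294002 is dropped. In deprivation, 2 as reported, the count was 1 with centring, 1 with an offset of 1 and 0 with the compared groups alone, and it was 3 with the covariate, where Atf3 passed too (2.15, adjusted p = 0.0468). For E2F1 with LY294002 it was 1 under quantile normalization, an offset of 64, no dimmest 30%, and trend. It was 1 with array weights for E2F1 in serum and for deprivation in cells with either virus, and for the control virus also 1 with an offset of 64 and with trend. In every setting but the average without the deprived control virus array, Fosl1 and Junb were called in the average. Fosl1 stayed between 0.74 and 0.90 and Junb between -0.69 and -0.60 there.

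Replicate numbers were not used as pairs in the fit as reported. Deviations of same-numbered arrays correlated at 0.301 between the 2 groups with LY294002 and from -0.022 to 0.065 between other groups. Whether same-numbered arrays were handled together was not known here. With a replicate block, 6 were called in the average and 1 in deprivation. Fos (adjusted p = 0.0162) and Egr1 (-0.63, 0.0352) then passed in the average, and Atf3 (0.0595) and, in deprivation, Junb (-1.10, 0.0756) did not.

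Some changes that were not called turned sign. Listed are those that also moved by more than 1 SE, and smaller crossings of 0 are left out. With the covariate these were, for LY294002 in E2F1 cells, Jun 1369788_s_at (-0.24), Junb (-0.02) and Egr1 (-0.17); for deprivation in control virus cells, Atf3 (-1.38), Egr1 (-0.04) and Rasa1 (0.36); and Jund 1387762_s_at with E2F1 and LY294002 (0.22). With 1 array left out, the ranges across 0 were, for E2F1 with LY294002, -0.03 to 0.69 for Fos 1371283_at, -0.40 to 0.08 for Fosl1 and -0.57 to 0.16 for Jund 1387762_s_at; for LY294002 in E2F1 cells, -1.22 to 0.94 for Fos 1375043_at, -0.22 to 0.55 for Jun 1369788_s_at and -0.04 to 0.64 for Egr1; for LY294002 in control virus cells, -0.76 to 0.37 for Fosb; and for deprivation, -0.07 to 0.83 for Jund 1375768_at with control virus and -0.22 to 0.54 for Jund 1387762_s_at with E2F1. The mean of both Jund probe sets gave -0.46 for E2F1 in serum, -0.12 and 0.06 for LY294002 in control virus and E2F1 cells, -0.37 for deprivation in control virus cells, and 0.18 and 0.24 for the differences with LY294002 and in deprivation. The causes were not tested. Of 2454 member changes under alternatives, 2361 kept their side of the threshold without a listed turn of sign. These either kept direction or, being uncalled, crossed 0 by a move within 1 SE. The rest were 39 that gained a call, 38 that lost one and 16 that turned sign as listed above. Most of the 2454 were not called in the fit as reported, so the 2361 say little about the called ones. All 38 losses fell on the 4 changes called in the average and the 2 called in deprivation.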
